A study of Mus musculus with 240 samples.

Results

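Neuropeptide Y and the receptors that bind it were followed by RNA sequencing in 3 brain regions of the 8 founder strains of the Collaborative Cross, a panel of mouse lines bred from these inbred parents. The 4 genes were taken by name: Npy (ENSMUSG00000029819), Npy1r (ENSMUSG00000036437), Npy2r (ENSMUSG00000028004) and Npy5r (ENSMUSG00000044014). They are 4 of 55414 genes counted, and all 4 were among the 14785 genes that the authors kept for testing. The 8 strains each gave 6 naive mice, 3 of each sex, described as 8 weeks old in the deposited design and as older adults in the study's methods. The laboratory strains were C57BL/6J (B6), 129S1/SvImJ (S129), A/J (AJ), NZO/HILtJ (NZO) and NOD/LtJ (NOD, named NOD/ShiLtJ in the study's methods), and the wild-derived strains were WSB/EiJ (WSB), PWK/PhJ (PWK) and CAST/EiJ (CAST). No mouse carried an engineered allele or received ethanol or another agent, and the strains are inbred, so the 6 mice of a strain are near-identical genetically. Tissue was punched from frozen coronal slices of the same 48 brains at the prelimbic cortex (PrL), the central amygdala (CeA) and the nucleus accumbens (NAcc). B6 and PWK are the study's high preference strains for ethanol drinking, and the other 6 are its low preference strains, whose mean is called Low_Average.

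Neuropeptide Y is a short amidated peptide released with other transmitters, in cortex and striatum by GABA interneurons, many of them somatostatin-positive. The peptide is cut from its precursor by prohormone convertases and amidated before release. Its receptors couple to Gi/o proteins: Npy1r encodes the Y1 receptor, mostly postsynaptic, Npy2r the Y2 receptor, largely a presynaptic autoreceptor, and Npy5r the Y5 receptor. The system is known for its part in feeding, anxiety-related behaviour and ethanol intake.

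Npy1r and Npy5r lie side by side in the genome. In the RefSeq annotation of GRCm38.p6, an older build than the GRCm39 genome to which the reads were aligned, Npy is on chromosome 6, Npy2r on chromosome 3, and Npy1r and Npy5r are neighbours on chromosome 8 that point away from each other. The Npy1r start used here lies 9328 bases from that of Npy5r. The sequences shown are the 250 bases before the start of Npy, the most abundant of the 4 transcripts, and the 216 bases of the Npy5r window that lie before every annotated exon. The first is chr6:49822460-49822709 on the plus strand and the second chr8:66688129-66688344 on the minus strand, both GRCm38.p6, 5′ to 3′, with capitals marking motif letters found by search on either strand.
Npy: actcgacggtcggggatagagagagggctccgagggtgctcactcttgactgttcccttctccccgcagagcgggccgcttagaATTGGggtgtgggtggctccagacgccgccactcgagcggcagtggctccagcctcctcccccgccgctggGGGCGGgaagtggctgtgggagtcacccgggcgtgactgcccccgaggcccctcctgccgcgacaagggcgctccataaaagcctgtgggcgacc
Npy5r: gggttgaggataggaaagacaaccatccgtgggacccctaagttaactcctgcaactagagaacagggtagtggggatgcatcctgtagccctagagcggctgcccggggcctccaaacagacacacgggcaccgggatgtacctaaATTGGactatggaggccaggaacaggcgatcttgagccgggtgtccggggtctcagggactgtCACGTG
In the Npy window the capitals mark a CCAAT box on the reverse strand and a GC box (GGGCGG), and in that of Npy5r a reverse CCAAT box and an E-box (CANNTG). Over 27025 promoters of the same length, 34.5% held CCAAT, 32.9% GGGCGG and 66.0% CANNTG. The GC content of the Npy window, 69.2%, was higher than that of 90.0% of those promoters, while the windows of Npy1r, Npy2r and Npy5r held 53.6%, 56.8% and 58.8%. The letters TATAAA and TGACG, searched in the same way and found in 13.0% and 17.9% of promoters, were in none of the 4 windows. The Npy1r window held an E-box and is not printed, since 230 of its bases are exonic in another transcript of the gene.

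The libraries used by the authors, 48 in CeA, 47 in NAcc and 48 in PrL, held between 14942820 and 33951616 counted reads, and no library had a count of 0 for any of the 4 genes (lowest count, 47, for Npy5r). The NAcc library of B6 mouse 1 was left out by the authors, so B6 has 5 libraries in that region and every other group has 6. Of the marker genes, all 5 tested for cortical glutamatergic neurons were higher in PrL than in both other regions and all 6 tested for striatal neurons were highest in NAcc. All 8 central amygdala genes were higher in CeA than in PrL, but 4 were higher and 2 lower in NAcc than in CeA. Those genes therefore separate CeA punches from cortex and not from NAcc. Some punches held other tissue: the 4 choroid plexus genes summed to more than 1000 CPM, the read count of a gene scaled to the total count of its library, in 10 of 48 CeA libraries, and to at most 48.3 CPM in NAcc and 7.65 CPM in PrL. Neuronal content varied as well. In CeA the striatal markers summed to 210 to 7560 CPM and the cortical glutamatergic markers to 316 to 2713 CPM. Markers of diencephalic neurons summed to 4.06 to 248 CPM in NAcc. In such bulk tissue, fewer cells of a type and less RNA per cell cannot be told apart.

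The 4 transcripts were distributed differently over the regions. Npy was the most abundant, with a mean of 65.8 CPM ± 18.2 (SD, n = 48) in CeA, 54.1 ± 14.7 (n = 47) in NAcc and 68.4 ± 16.0 (n = 48) in PrL. Npy1r, the Y1 receptor gene, averaged 17.8 ± 4.51 CPM in CeA, 12.8 ± 3.86 in NAcc and 30.5 ± 5.63 in PrL. The lowest PrL library, at 17.3 CPM, was above the NAcc mean. Npy2r, the Y2 receptor gene, had the opposite distribution, with 29.3 ± 10.6 CPM in CeA, 32.6 ± 13.9 in NAcc and 4.38 ± 1.71 in PrL, and the highest PrL library (8.57 CPM) was below the CeA minimum of 9.89. In NAcc 1 library, of PWK, fell below that PrL value, at 6.10 CPM. Npy5r, the Y5 receptor gene, was low in every region, at 4.07 ± 0.849, 4.71 ± 1.11 and 4.63 ± 0.978 CPM in CeA, NAcc and PrL.

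**Figure D1:**
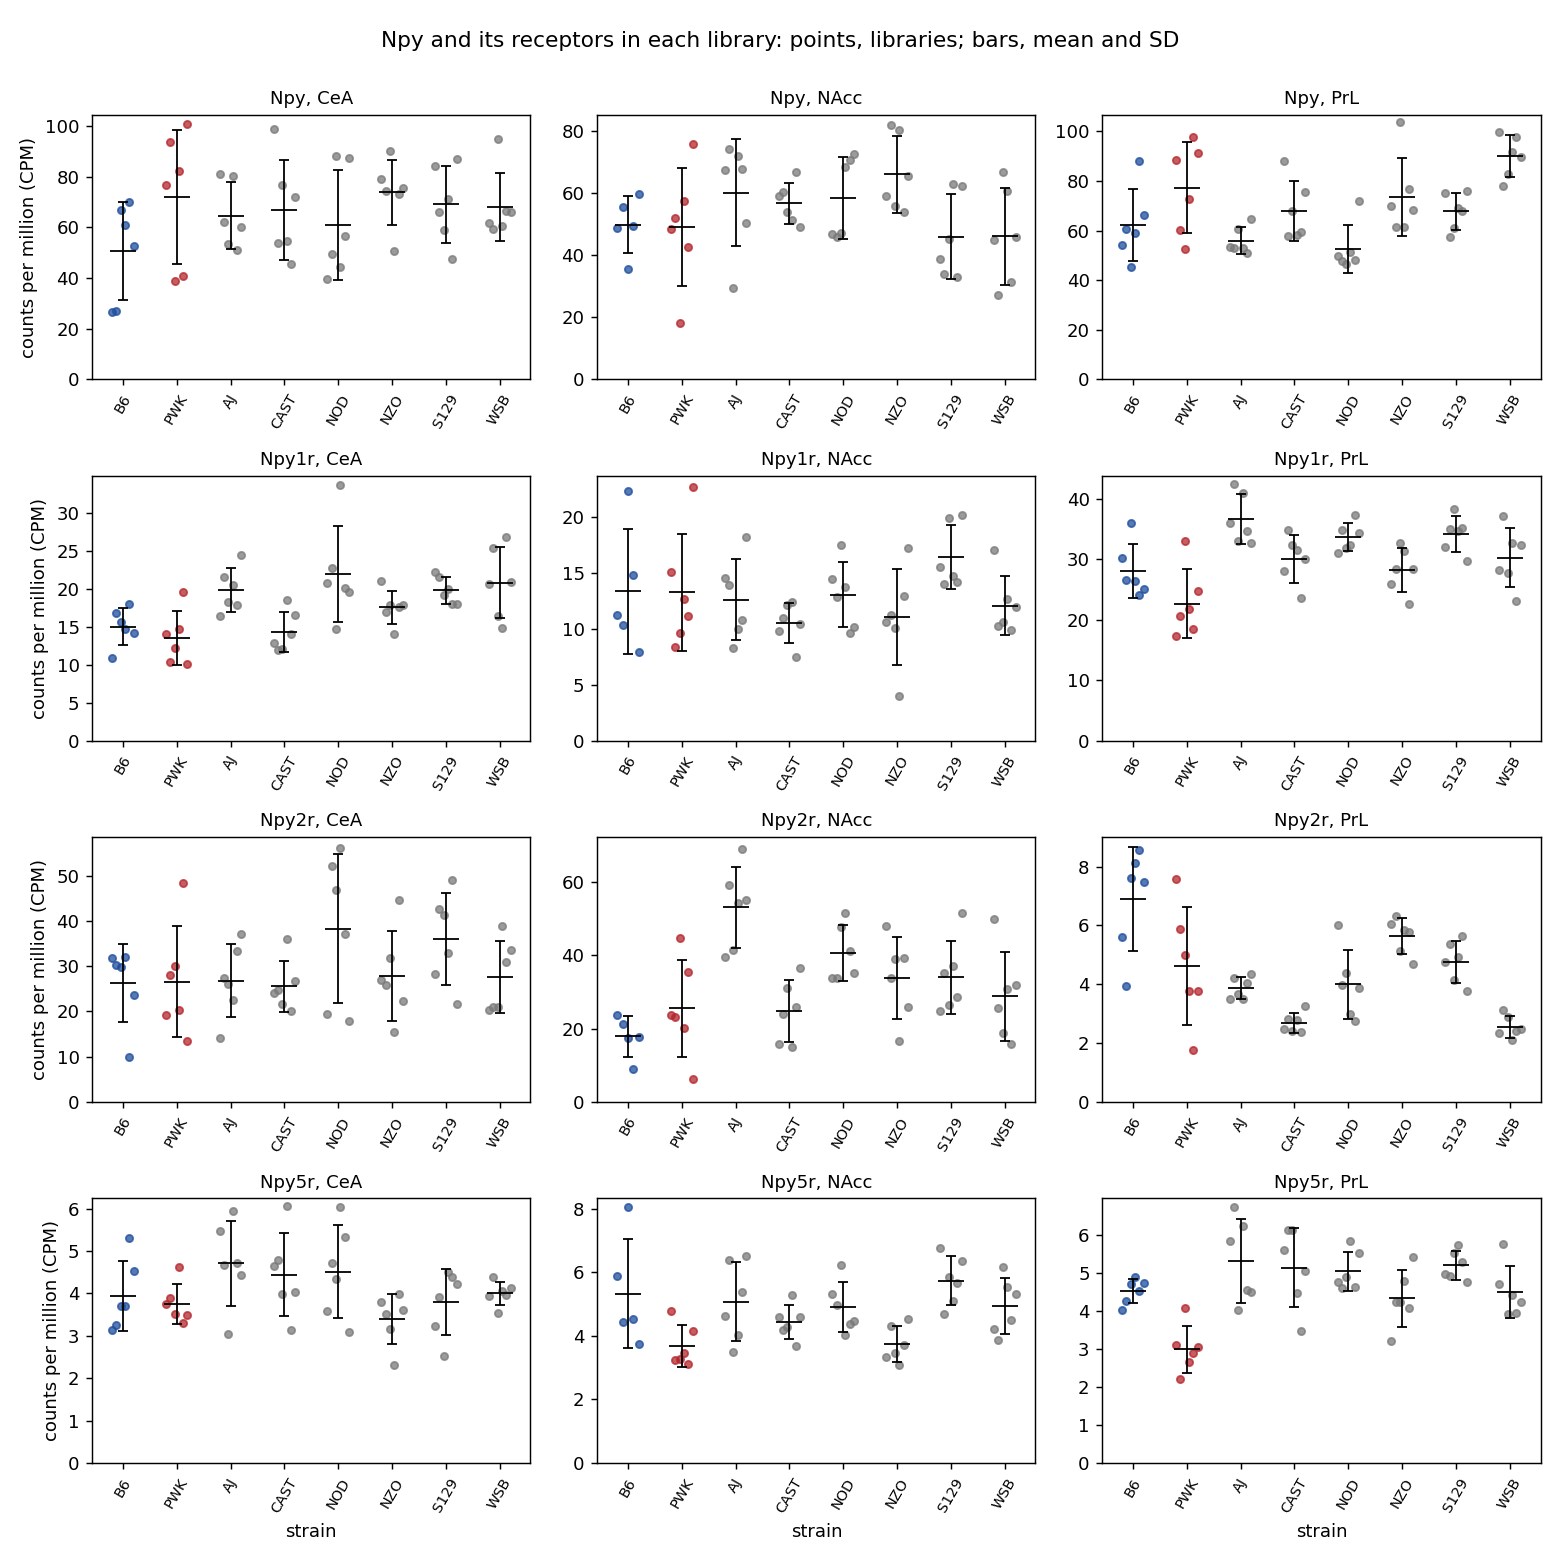
CPM of Npy, Npy1r, Npy2r and Npy5r (rows) in CeA, NAcc and PrL (columns) by strain; points are libraries (6 per group, 5 for B6 in NAcc), bars the mean and SD, with B6 in blue and PWK in red. Npy2r averaged 4.38 CPM in PrL, and the PrL points of PWK lie low for Npy1r and Npy5r.

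Tested over all libraries with limma, averaged over strains, Npy1r was higher in PrL than in CeA (log2 fold change 0.84 ± 0.06, SE) and NAcc (1.36 ± 0.06), and lower in NAcc than in CeA (−0.51 ± 0.06), with adjusted p-values of at most 1.19e-12. Npy2r was 6.52-fold lower in PrL than in CeA and 6.77-fold lower than in NAcc (adjusted p = 1.04e-33 and 3.40e-34), and its NAcc to CeA difference of 0.05 ± 0.09 did not pass (adjusted p = 0.596). Npy was lower in NAcc than in CeA (−0.32 ± 0.08, adjusted p = 0.000156) and PrL (0.45 ± 0.08 higher in PrL, adjusted p = 1.80e-07). Its PrL to CeA difference of 0.13 ± 0.08 had an adjusted p of 0.116. For Npy5r the differences were small: 0.18 ± 0.05 higher in NAcc and 0.23 ± 0.05 higher in PrL than in CeA (adjusted p = 0.00162 and 9.09e-05), and 0.05 ± 0.05 between PrL and NAcc (adjusted p = 0.429). Of all genes tested, 69.1% differed between NAcc and CeA, 73.9% between PrL and CeA and 82.4% between PrL and NAcc, so a regional difference was the usual outcome.

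Levels of different genes can be set side by side only per length. Per kilobase of merged exons (566 bases for Npy, 3454 for Npy1r, 3383 for Npy2r and 2555 for Npy5r in GENCODE M21), Npy averaged 116 CPM per kb in CeA, 95.7 in NAcc and 121 in PrL. Among the receptors the order changed with the region. In PrL it was Npy1r (8.82 CPM per kb), Npy5r (1.81) and Npy2r (1.29), and in NAcc it was Npy2r (9.64), Npy1r (3.70) and Npy5r (1.84). In CeA, Npy2r (8.67) also stood above Npy1r (5.16) and Npy5r (1.59), though the ranges of Npy1r and Npy2r over libraries overlapped there and in NAcc, as did those of Npy5r and Npy2r in PrL and NAcc and of Npy5r and Npy1r in NAcc.

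Strain differences passed most often in PrL. The test over the 8 strains passed for 4 of the 4 genes in PrL (adjusted p = 4.42e-07 for Npy, 4.54e-06 for Npy1r, 7.70e-07 for Npy2r and 8.48e-06 for Npy5r). It passed for Npy2r and Npy5r in NAcc (adjusted p = 0.00120 and 0.00202) and for Npy1r in CeA (adjusted p = 0.000378). It did not pass for Npy and Npy1r in NAcc (0.148 and 0.174) or for Npy, Npy2r and Npy5r in CeA (0.295, 0.290 and 0.124). Among all genes tested, 80.7% passed in CeA, 75.9% in NAcc and 83.8% in PrL. Of the 112 pairwise contrasts of strains for the 4 genes (28 per gene), 14 passed in CeA, 17 in NAcc and 50 in PrL, or 12.5%, 15.2% and 44.6%, against 28.8%, 26.1% and 33.0% over all genes and pairs. A strain differed from the mean of the other 7 in 4, 6 and 13 of 32 cases in CeA, NAcc and PrL, where 30.4%, 27.6% and 35.2% of such contrasts passed over all genes. In CeA and NAcc the 4 genes thus passed no more often than genes at large. Of the 23 such differences that passed, 22 had the same sign within each of the 3 library trays, the exception being Npy of PWK in PrL (−0.10 to 0.44). The trays are parts of the libraries that gave these differences, so the shared signs are a description and no separate support.

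**Figure D2:**
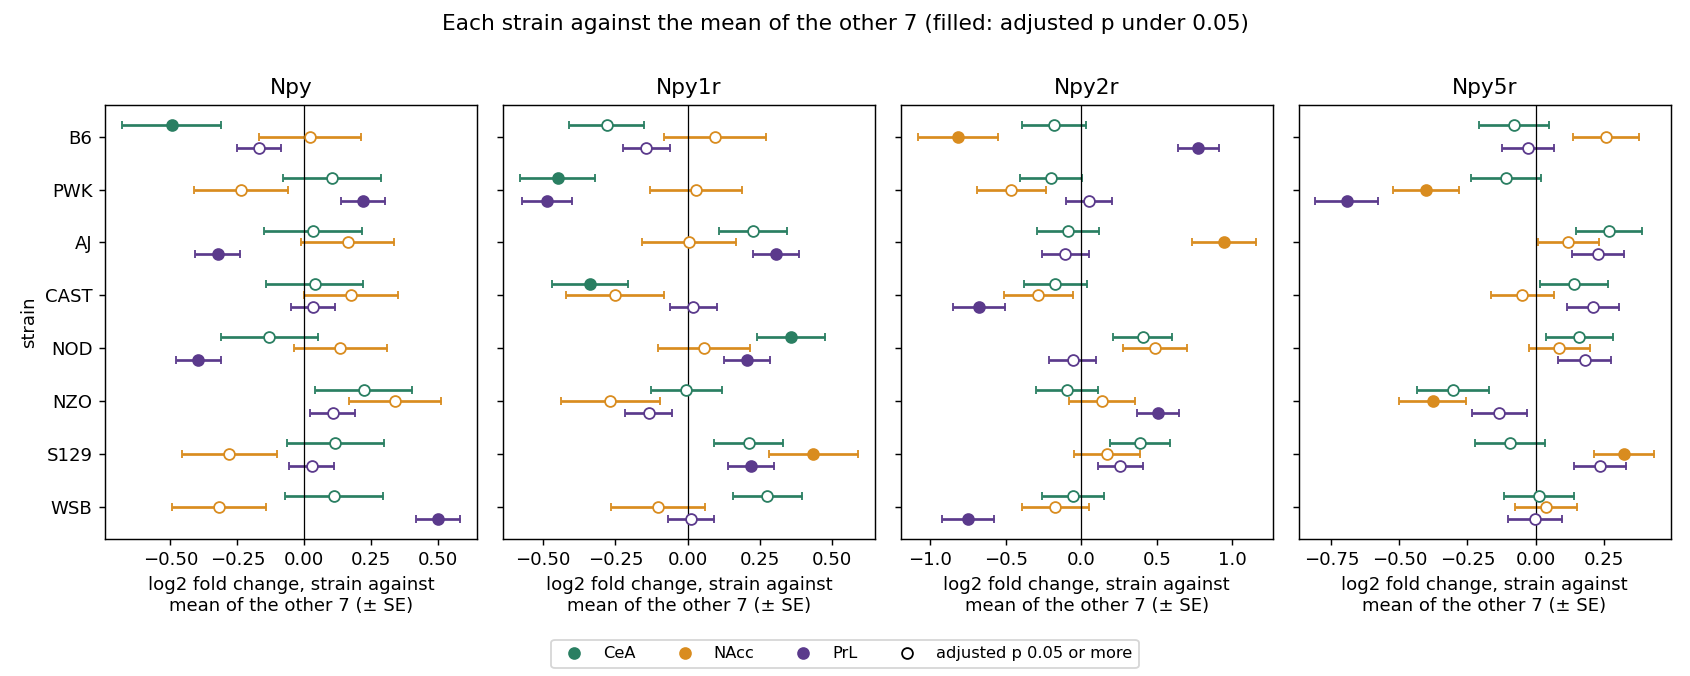
Log2 fold change (± SE) of each strain against the mean of the other 7 for the 4 genes, by region; filled points passed at an adjusted p under 0.05. Filled points are most frequent in PrL (13 of 32), with Npy2r of B6 on opposite sides of 0 in NAcc and PrL.

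In PrL, Npy itself was highest in WSB and lowest in NOD and AJ. The 6 WSB libraries ran from 77.8 to 99.7 CPM with a median of 90.7. Those of NOD ran from 46.6 to 72.1 (median 49.0) and those of AJ from 51.1 to 64.7 (median 53.2), so neither strain overlapped WSB. The strain means descended from WSB (89.9 ± 8.47 CPM) through PWK (77.2 ± 18.3), NZO (73.6 ± 15.8), CAST (67.8 ± 12.1), S129 (67.8 ± 7.39), B6 (62.3 ± 14.5) and AJ (55.9 ± 5.43) to NOD (52.6 ± 9.67). No pairwise contrast between neighbours in this order passed. WSB was higher than 6 strains, by 0.34 to 0.78 on the log2 scale, with PWK the exception (0.25 ± 0.11, adjusted p = 0.0853). Against the mean of the other 7, Npy was 1.41-fold higher in WSB (adjusted p = 5.03e-06), and lower in NOD (log2 fold change −0.40 ± 0.09, adjusted p = 0.000257) and AJ (−0.32 ± 0.08, adjusted p = 0.00225). PWK was 0.22 ± 0.08 higher (adjusted p = 0.0370), and it did not pass without mouse 8, 32, 40 or 48, 4 of the 6 left out in turn. Without mouse 40 it became 0.14 with an adjusted p of 0.227. The library of mouse 40 also held striatal neuron markers summing to 1876 CPM, the highest of the PrL libraries, the next being 491 CPM. The part of those cells in the value was not tested.

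Npy1r and Npy5r were both lowest in PWK in PrL. For Npy1r the PWK libraries ran from 17.3 to 33.1 CPM with a median of 21.2, while AJ, the highest strain, ran from 32.7 to 42.5 (median 35.4). Only the PWK library of mouse 24, at 33.1 CPM, reached the range of AJ. For Npy5r the PWK libraries ran from 2.21 to 4.07 CPM (median 2.97), whereas the remaining 7 strains ran from 3.21 to 6.73 CPM. Mouse 24 again gave the highest PWK value.

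Both genes were lower in PWK than in each of the 7 strains, and 4.78% of all genes passed in that direction against each of the 7 in PrL. With 1 PWK library left out at a time, 7 of 7 contrasts passed for Npy5r in each case, and between 5 and 7 for Npy1r. The differences ranged from 0.30 (B6) to 0.69 (AJ) on the log2 scale for Npy1r, and from 0.49 (NZO) to 0.81 (S129) for Npy5r, with largest adjusted p-values of 0.0334 and 0.00659. Against the mean of the other strains, Npy1r was 1.40-fold and Npy5r 1.62-fold lower in PWK (log2 fold change −0.49 ± 0.09 and −0.69 ± 0.11, adjusted p = 1.52e-05 and 3.83e-06). Within each of the 3 library trays, parts of the same data, the PWK difference kept its sign, from −0.61 to −0.34 for Npy1r and from −0.71 to −0.63 for Npy5r. With those libraries left out in turn the values ranged from −0.60 to −0.42 and from −0.79 to −0.58, and all passed. At the other end, Npy1r was higher than the mean of the other 7 in AJ (0.31 ± 0.08), S129 (0.22 ± 0.08) and NOD (0.21 ± 0.08), with adjusted p-values of 0.00196, 0.0297 and 0.0417. In the Npy5r order from AJ (5.31 ± 1.10 CPM) to NZO (4.32 ± 0.740) no pair of the 7 strains other than PWK differed. Npy5r rests on 47 to 175 counts per PrL library. Its values in the 2 sequencing runs of trays 2 and 3 correlated at 0.678 and 0.731, against at least 0.977 for the other 3 genes. These r values cover the 48 libraries of a tray from all 3 regions, between which Npy1r and Npy2r differ more than Npy5r. They do not compare repeatability within PrL. The median absolute log2 difference between runs was 0.180 and 0.149 for Npy5r, and 0.0377 to 0.0915 for the other genes.

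The neighbouring genes also varied together between mice. After strain, region, sex and tray were removed, Npy1r and Npy5r had a Pearson r of 0.61 over 48 PrL libraries, 0.57 over 47 in NAcc and 0.29 over 48 in CeA. The plot of the pair shows the values before that removal. The 24 strain-by-region means, centred within region, gave an r of 0.63. Over all libraries the residual r of Npy1r with Npy5r was 0.46. For the other 5 pairs of the 4 genes it lay between −0.33 (Npy with Npy2r) and 0.23 (Npy with Npy5r). In NAcc and PrL no other pair had an r as large in size as Npy1r with Npy5r. In CeA, Npy with Npy5r (0.39) and Npy with Npy2r (−0.39) were larger in size than Npy1r with Npy5r (0.29). These are descriptions over libraries that share trays and depth, with no test. Other annotated neighbours gave little to compare: Map9, next to Npy2r, was the only one tested. Map9 passed the strain test in PrL and NAcc (adjusted p = 0.00143 and 0.0104) and not in CeA (0.176), where its difference of 0.18 in WSB from the other 7 passed (adjusted p = 0.0422). In PrL its log2 differences of −0.01 for B6 and 0.09 for WSB did not pass (adjusted p = 0.867 and 0.176).

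**Figure D3:**
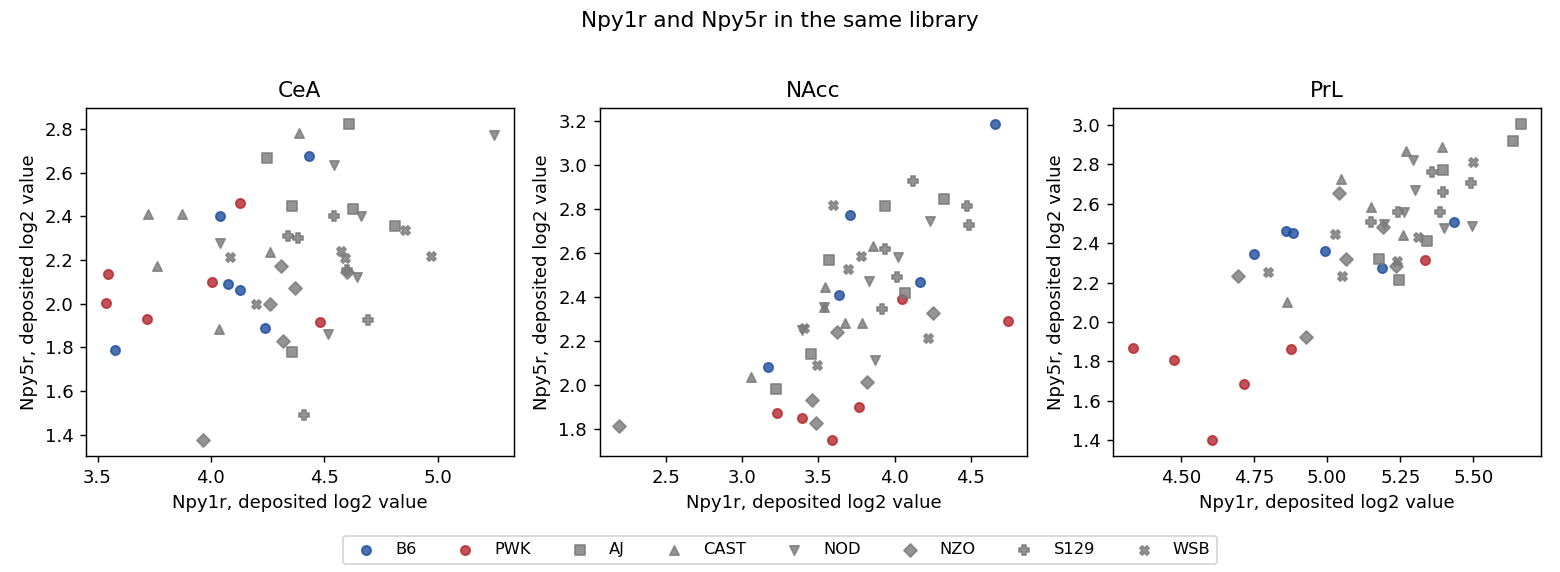
Deposited log2 values of Npy1r (x axis) and Npy5r (y axis) in each library, by region, with B6 in blue, PWK in red and the 6 low preference strains in grey by symbol. In PrL the PWK points sit at the low end of both axes, and mouse 24 lies apart from them.

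Npy2r, scarce in PrL, was highest there in B6 and lowest in WSB and CAST. The 6 B6 libraries held 3.95 to 8.57 CPM with a median of 7.56, and those of WSB 2.12 to 3.13 (median 2.43), so these strains did not overlap. The means descended from B6 (6.89 ± 1.76 CPM), NZO (5.64 ± 0.614), S129 (4.77 ± 0.709), PWK (4.63 ± 2.00), NOD (4.00 ± 1.17) and AJ (3.88 ± 0.376) to CAST (2.69 ± 0.351) and WSB (2.56 ± 0.376), with no difference between adjacent strains that passed. B6 was higher than 5 strains, by 0.64 to 1.34 on the log2 scale, but not than NZO (0.23 ± 0.18, adjusted p = 0.332) or S129 (0.45 ± 0.18, adjusted p = 0.0520). Against the mean of the other 7, Npy2r was 1.71-fold higher in B6 and 1.42-fold higher in NZO (adjusted p = 7.98e-06 and 0.00377). It was 1.68-fold lower in WSB and 1.60-fold lower in CAST (adjusted p = 0.000533 and 0.00142). The B6 PrL punches also held the least cortical glutamatergic marker RNA: the summed 6 markers averaged 2885 CPM in B6 and 2937 to 3400 CPM in the other strains, and 5 of 5 tested markers were lower in B6 than in the other 7. Of the 8 central amygdala markers, 4 were higher and 1 lower in B6 PrL, and 1 was higher and 3 lower in WSB PrL, while their summed level was lowest in B6 (166 CPM) and highest in WSB (352 CPM). The part of these cells in the result was not tested. Without any 1 of the B6 libraries the B6 log2 difference stayed between 0.72 and 0.93.

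In NAcc the strain order of Npy2r was another, with AJ highest and B6 lowest and a 2.98-fold range of strain means. AJ libraries held 39.7 to 69.1 CPM with a median of 54.7, and the 5 B6 libraries held 9.08, 17.5, 17.6, 21.2 and 23.7 CPM, all below the lowest of AJ. The means ran from AJ (53.1 ± 11.1 CPM) through NOD (40.6 ± 7.59), S129 (34.0 ± 9.90), NZO (33.8 ± 11.1), WSB (28.8 ± 12.1), PWK (25.5 ± 13.3) and CAST (24.8 ± 8.42) to B6 (17.8 ± 5.54). Npy2r was 1.92-fold higher in AJ and 1.76-fold lower in B6 than in the other 7 strains (adjusted p = 0.000610 and 0.0187). The B6 value rests in part on mouse 33, whose library had the lowest B6 value and cortical glutamatergic markers at 1456 CPM, where the NAcc libraries of the 6 strains other than B6 and PWK reached at most 735 CPM. Without it the B6 log2 difference was −0.63, with an adjusted p of 0.0964. That library also had the highest striatal marker sum of the NAcc libraries (7095 CPM). By strain, the striatal marker sum in NAcc was highest in B6, at 5437 CPM against means of 2555 to 4998 elsewhere. The cortical glutamatergic marker sum was also highest in B6, at 706 CPM against 250 to 485. In PWK, likewise, the 2 extreme Npy2r libraries, 6.10 CPM in mouse 48 and 44.7 CPM in mouse 24, had the highest cortical marker sum (1656 CPM) and the lowest striatal marker sum (375 CPM) of the NAcc libraries. What those cells contributed was not tested.

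Npy5r in NAcc was lowest in PWK and NZO. The PWK libraries ran from 3.10 to 4.78 CPM (median 3.36), those of NZO from 3.07 to 4.52 (median 3.59) and those of S129, the highest strain, from 4.68 to 6.77 (median 5.76). S129 thus overlapped PWK only between 4.68 and 4.78 CPM and did not overlap NZO. Against the mean of the other 7, PWK was 1.32-fold and NZO 1.30-fold lower (adjusted p = 0.0104 and 0.0178) and S129 was 1.25-fold higher (adjusted p = 0.0248). With the other sequencing run of trays 2 and 3 none of the 3 passed. For Npy1r in NAcc, S129 (16.4 ± 2.86 CPM) was higher than NZO (11.0 ± 4.30) and CAST (10.5 ± 1.79), the 2 pairs of 28 that passed. No strain pair passed for Npy, whose NAcc means ran from 46.0 ± 13.6 CPM in S129 to 66.1 ± 12.4 in NZO.

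In CeA the Npy1r strains fell into a lower set, PWK (13.5 ± 3.52 CPM), CAST (14.3 ± 2.67) and B6 (15.0 ± 2.46), and a higher set, S129 (19.8 ± 1.77), AJ (19.8 ± 2.92), WSB (20.8 ± 4.72) and NOD (21.9 ± 6.33). Each of the first 3 differed from each of the last 4, which makes up the 12 pairs that passed, and NZO (17.5 ± 2.19) differed from none. The first 3 strains also had the lowest cortical glutamatergic marker sums in CeA. These averaged 1006 ± 373 CPM in B6, 1202 ± 528 in CAST and 1304 ± 516 in PWK. In the other strains they ran from 1431 ± 520 (AJ) to 1986 ± 529 (NOD). The part of those cells in the Npy1r values was not tested. The PWK libraries ran from 10.1 to 19.6 CPM and those of NOD from 14.7 to 33.6, so the groups overlapped. Relative to the other 7 strains, Npy1r was 1.37-fold lower in PWK, 1.26-fold lower in CAST and 1.28-fold higher in NOD (adjusted p = 0.00727, 0.0449 and 0.0177). With the 10 CeA libraries over 1000 CPM of choroid plexus genes left out, 6 pairs passed for Npy1r, its difference in NOD was 0.12 (adjusted p = 0.621), and those in PWK and CAST were −0.44 and −0.34 (adjusted p = 0.0115 and 0.0296).

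Npy in CeA was lowest in B6, at 50.6 ± 19.4 CPM against strain means of 60.9 to 73.7 CPM. The difference from the mean of the other 7 was −0.50 ± 0.19 (adjusted p = 0.0381), though the test over the 8 strains did not pass. The B6 libraries of mice 1, 9, 17, 25, 33 and 41 held 26.4, 27.0, 67.0, 60.7, 69.9 and 52.6 CPM, so mice 1 and 9 lay apart. Both of these libraries had choroid plexus genes at 7812 and 5715 CPM, whereas the other 4 had at most 59.3 CPM, and mouse 1 had the highest oligodendrocyte marker sum of the CeA libraries (16908 CPM). The 5 oligodendrocyte genes were also high in B6 CeA as a group, summing to 8555 ± 4292 CPM with a minimum of 5049, where the other strain means ran from 1853 to 4613 CPM, and 2 of 2 tested were higher in B6. Their part in the Npy value was not tested. The B6 value did not pass without mouse 1 or mouse 9, and was −0.29 without mouse 9 (adjusted p = 0.250). With all 10 libraries over 1000 CPM of choroid plexus genes left out it was −0.16 (adjusted p = 0.531). The 1 pair of strains that passed for Npy was B6 below NZO (−0.63 ± 0.24, adjusted p = 0.0480). For Npy2r and Npy5r in CeA, 0 pairs and 1 pair of strains passed, the latter AJ above NZO (4.71 ± 1.00 against 3.40 ± 0.597 CPM).

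The contrast of the study sets the high preference strains against Low_Average. For B6, Npy and Npy1r were lower in CeA (log2 fold change −0.49 ± 0.19 and −0.35 ± 0.13, adjusted p = 0.0333 and 0.0291). Npy2r was lower in NAcc (−0.90 ± 0.27, adjusted p = 0.00790), and in PrL Npy1r was lower (−0.22 ± 0.08, adjusted p = 0.0296) and Npy2r higher (0.80 ± 0.14, adjusted p = 4.97e-06). For PWK, Npy1r was lower in CeA (−0.50 ± 0.13, adjusted p = 0.00233) and PrL (−0.52 ± 0.09, adjusted p = 4.94e-06), Npy2r in NAcc (−0.59 ± 0.23, adjusted p = 0.0409) and Npy5r in NAcc (−0.37 ± 0.12, adjusted p = 0.0153) and PrL (−0.71 ± 0.11, adjusted p = 2.15e-06). In all, 3 of 8 contrasts passed in CeA, 3 in NAcc and 4 in PrL, where 41.0%, 32.2% and 37.3% of all genes passed for B6 and 39.3%, 38.8% and 47.1% for PWK. These counts lie near the background, and Npy1r in CeA and PrL and Npy2r in NAcc were the results in which both high preference strains passed with the same sign. The 2 strains are compared with the same low preference mice. A low preference strain lay beside B6 or PWK in each case. Npy1r averaged 14.3 CPM in CAST and 15.0 in B6 in CeA, and 28.3 in NZO and 28.0 in B6 in PrL. In NAcc, Npy2r averaged 24.8 CPM in CAST and 25.5 in PWK. None of these pairwise contrasts passed (adjusted p = 0.861, 0.971 and 0.755). Against the mean of the other 7 strains, Npy1r of B6 did not pass in CeA or PrL (adjusted p = 0.0987 and 0.175). For Npy2r in PrL, B6 and PWK gave 0.80 ± 0.14 and 0.16 ± 0.15, the second with an adjusted p of 0.418. The PWK value of Npy2r in NAcc ranged from −0.80 to −0.27 when 1 PWK library was left out, and it did not pass without mouse 8, 16, 32 or 48 (adjusted p = 0.313 without mouse 48). The PWK value of Npy5r in NAcc ranged from −0.44 to −0.33 and did not pass without mouse 16 (0.0521). The B6 value of Npy in CeA ranged from −0.61 to −0.29 and did not pass without mouse 1 or mouse 9, and that of Npy1r in CeA ranged from −0.43 to −0.20 and did not pass without mouse 1 or mouse 41. Without all 10 choroid-rich libraries these became −0.14 and −0.18 (adjusted p = 0.564 and 0.332). In PrL the B6 value of Npy1r ranged from −0.29 to −0.15 and did not pass without mouse 25, 33 or 41 (adjusted p = 0.167 without mouse 25), and in NAcc that of Npy2r from −1.02 to −0.71 (0.0513 without mouse 33).

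**Figure D4:**
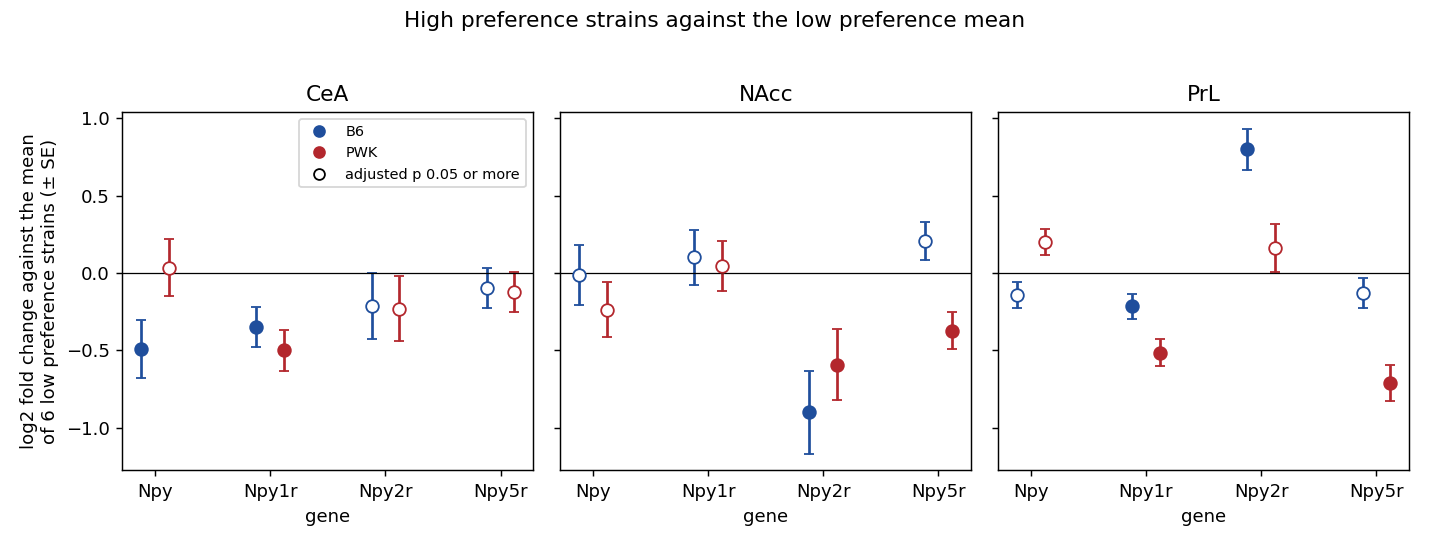
Log2 fold change (± SE) of B6 (blue) and PWK (red) from Low_Average for each gene, in CeA, NAcc and PrL; filled points passed at an adjusted p under 0.05. Npy1r is filled and below 0 for both strains in CeA and PrL, and Npy2r of B6 is below 0 in NAcc and above 0 in PrL.

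Whether a strain's effect differed between regions was tested directly. The test of all strain-by-region terms passed for Npy (adjusted p = 0.0393) and Npy2r (adjusted p = 0.00332), not for Npy1r (0.0754) or Npy5r (0.0755), and 34.5% of all genes passed it. Of the 24 single contrasts of each gene, 3 of 96 passed over the 4 genes, where 1.87% passed over all genes. Npy2r in B6, relative to the other strains, was higher in PrL than in NAcc by 1.57 ± 0.39 on the log2 scale (adjusted p = 0.0130). Npy2r in AJ was higher in NAcc than in CeA by 1.03 ± 0.26 (adjusted p = 0.0169), and Npy in WSB higher in PrL than in NAcc by 0.81 ± 0.23 (adjusted p = 0.0448). The AJ CeA punches held the most striatal marker RNA, at 4081 ± 2981 CPM against means of 472 to 2204 in the other strains. AJ mouse 5, with the lowest AJ CeA value of Npy2r (14.1 CPM), had the highest such sum of the CeA libraries (7560 CPM). The part of those cells in the AJ result was not tested. The lower Npy5r of PWK in PrL than in CeA, −0.59 ± 0.18, had an adjusted p of 0.0585, and of 0.0463 with mouse as a replicate block.

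No sex difference passed for the 4 genes. The female minus male differences were between −0.10 and 0.24 on the log2 scale over the 12 cases, with a smallest adjusted p of 0.710. Few genes passed at all, 0.135% in CeA, 0.0812% in NAcc and 0.0947% in PrL. At 3 mice of each sex per strain, a sex effect within 1 strain was not tested.

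Enzymes that make and remove the peptide were counted against the shares of all genes. Of 8 tested genes of peptide processing, 5 passed the strain test in CeA, 5 in NAcc and 7 in PrL, where 80.7%, 75.9% and 83.8% of all genes did. These shares lie below the background in CeA and NAcc and near it in PrL. Scg5, the chaperone of the convertase encoded by Pcsk2, was lower in B6 in all 3 regions, by 1.28, 1.11 and 1.30 on the log2 scale in CeA, NAcc and PrL (adjusted p of at most 4.67e-21). Pam, the amidating enzyme, was lower in B6 by 0.23, 0.24 and 0.22 (adjusted p = 0.00626, 0.00789 and 0.0165). Dpp4, a peptidase that trims the peptide, fell by 0.86 in B6 in PrL (adjusted p = 2.37e-06), and averaged 0.874 and 0.717 CPM in CeA and NAcc. The median over the 8 genes for B6 was −0.26, −0.06 and −0.30 in CeA, NAcc and PrL, beside 0.01, 0.01 and −0.00073 over all genes. For PWK, Pcsk1, a convertase gene, was lower in PrL (−0.27, adjusted p = 0.0153) and higher in NAcc (0.54, adjusted p = 0.0344).

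Genes of receptor signalling were counted in the same way. Of 19 tested genes for Gi/o subunits, adenylyl cyclases, potassium and calcium channels, arrestins and receptor kinases, 18 passed the strain test in CeA, 15 in NAcc and 13 in PrL, beside the same 80.7%, 75.9% and 83.8%. For PWK in PrL, where Npy1r and Npy5r were low, 7 were higher and 1 lower, near the 35.2% of all such contrasts in PrL, with a median of 0.03 beside 0.01 over all genes. Kcnj6, a Gi/o-gated potassium channel subunit, was 0.58 higher (adjusted p = 2.16e-07), and Grk3, a receptor kinase, 0.30 lower (adjusted p = 0.000436).

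Markers of the interneurons that make the peptide did not all follow Npy. Of 13 markers, 9, 7 and 7 passed the strain test in CeA, NAcc and PrL, below the 80.7%, 75.9% and 83.8% of all genes. In WSB PrL, where Npy was highest, 3 were higher and 1 lower than in the other strains, a share near the 35.2% over all such contrasts, with a median of 0.11. Crhbp, Lamp5 and Sst rose by 0.53, 0.43 and 0.28 (adjusted p = 1.05e-09, 0.0134 and 0.00569), while Nos1, which marks a subset of these cells, fell by 0.26 (adjusted p = 0.0237). Among the closest relations to the listed markers between mice of a strain, the residuals of Npy went with Lamp5 in NAcc (r = 0.82) and CeA (0.76), with Sst in NAcc (0.72), with the striatal marker Drd1 in CeA (0.71) and NAcc (0.68), and against the choroid plexus gene Kl in CeA (−0.67). Those of Npy2r went with Crh in NAcc (0.78), with Lhx9 in CeA (0.69) and against Gnao1 in NAcc (−0.84). They are given as descriptions over 47 or 48 libraries.

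Over all genes tested, those most like each member were listed by 2 measures. By residuals over all libraries, Npy was followed most closely by Tspan7 (r = 0.74), Prkcz (0.71), Cx3cl1 (0.71), Brk1 (0.71) and Rab15 (0.70), and Npy2r by Pnck (0.81), Ahi1 (0.80), AW551984 (0.78), Pnmal2 (0.78) and Magee2 (0.78). The closest to Npy1r were Kcnt2 (0.64), Ryr2 (0.57), Pdcd4 (0.56), Ahr (0.56) and Gpr22 (0.54), and to Npy5r Slc2a13 (0.54), Cfap97 (0.50), Syndig1 (0.48), Gprin3 (0.47) and Clip4 (0.47). Over the 24 strain-by-region means centred within region, the closest were Phrf1, Ung, Myc, Ssbp4 and Pbx2 for Npy (0.61 to 0.64) and Acsl5, Plaa, Napg, Cfl1 and Tbc1d25 for Npy1r (0.77 to 0.83). For Npy2r they were Smoc1, Matn4, Mapk3, Myo16 and Ints3 (0.69 to 0.76), and for Npy5r Ndufb4, AU041133, Bnip3, Igfbp4 and Lrrc3 (0.79 to 0.82).

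The remaining genes of the family were at or near the limit of detection and were not tested. Pyy, for the gut peptide YY, had 0 counts in every library. Taken alone, a 0 in a single library allows an expected count of up to about 3 there. Ppy, for pancreatic polypeptide, was at 0 in 43 of 48 CeA, 42 of 47 NAcc and 42 of 48 PrL libraries, with at most 12 counts in 1 library. Npy4r, the Y4 receptor gene, exceeded 3 counts in 10 CeA and 14 NAcc libraries (at most 13 and 12) and in 0 of 48 PrL libraries. Npy6r was at 0 in 44, 38 and 47 libraries of CeA, NAcc and PrL.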

How the data were processed

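RNA from punches of CeA, NAcc and PrL was sequenced in 3 library trays, trays 2 and 3 in 2 runs. Per the labels and the study's methods, the authors trimmed reads with Trimmomatic, aligned them with STAR 2.7.3a to GRCm39 with at most 3 mismatches per read, and counted reads per gene. All strains were aligned to 1 genome, and the effect of strain variants on the counts was not tested. That limit also holds for the low PrL values of Npy1r and Npy5r in PWK and of Npy2r in WSB and CAST. The deposited table holds raw counts for 55414 genes, and the authors' second deposited table holds log2 CPM for 14785 genes, with 1 run chosen per tray and 1 library left out. Recomputing it from the counts gave a largest difference of 5e-06.

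From the counts, CPM were computed per total of all genes, and limma 3.58.1 (voom, TMM factors from edgeR 4.0.16) was fitted over all 14785 genes in each region with strain, sex and tray. P-values were adjusted by Benjamini-Hochberg over all genes and the contrasts of a family, with a threshold of 0.05. Regions and strain-by-region terms were fitted over the libraries of the 3 regions together. The scripts were tested on simulated data. The members, the gene lists and the rule for named genes were chosen with earlier results of these data known. Named are the members, the genes of the lists, the 5 genes most like each member by either measure, and annotated neighbours. Alternatives were edgeR, DESeq2 1.42.0, RLE factors, other filters, runs, weights and adjustments, and leaving out libraries.

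The 3 regions of a mouse share an animal, so mouse was used as a replicate block in an alternative fit. Same-mouse residuals correlated at a median of 0.0557, 0.0301 and −0.00155 for NAcc with CeA, PrL with CeA and PrL with NAcc, and those of other mice at 0.00342, 0.00376 and −0.000772. Intervals of counting error are not given, since the spread over mice was used. Figures were drawn with matplotlib 3.10.9.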

Additional observations from a re-analysis of the deposited data

Results flagged for a closer look

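In 96 groups of strain, region and gene, 5 had a library whose distance from the nearest other was large against the range of its group by Dixon's test, about the 1 in 20 that chance gives. Npy was low in NZO mouse 26 in CeA (50.6 CPM) and high in WSB mouse 19 in CeA (94.9 CPM) and NOD mouse 47 in PrL (72.1 CPM). Npy2r was low in B6 mouse 33 in CeA (9.89 CPM), and Npy5r was high in WSB mouse 11 in PrL (5.75 CPM). The NZO mouse 26 library was also 1 of the 10 CeA libraries rich in choroid plexus genes, at 2426 CPM. Its part in the Npy value was not tested. The B6 mouse 33 library had the highest striatal marker sum of the B6 CeA libraries (5647 CPM). The part of those cells in the Npy2r value was not tested.

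The strain effects that differed between regions by the test of the difference were those of Npy in WSB between PrL and NAcc (0.81 on the log2 scale), of Npy2r in B6 between PrL and NAcc (1.57) and of Npy2r in AJ between NAcc and CeA (1.03). AJ had the highest mean striatal marker sum of the strains in CeA (4081 CPM), and its part in the AJ result was not tested. WSB had the highest mean diencephalic marker sum of the strains in NAcc (111 CPM), and its part in the WSB result was not tested.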

How the results depend on the processing

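No called result changed direction under any alternative run. With mouse as a replicate block, 1 strain effect of Npy5r differed between regions in place of 0, and no other call changed.

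For Npy in CeA, the 1 pair of strains became 0 under edgeR, DESeq2, no filter on low counts, a mean CPM of at least 5, no tray term, quality weights, limma-trend, adjustment within each contrast and the fit without choroid-rich libraries, an alternative chosen after seeing the data. Its 1 strain that differed from the other 7 became 0 under edgeR, DESeq2, no filter, no tray term, quality weights and without choroid-rich libraries. The Npy difference of B6 from Low_Average in CeA was −0.41 by edgeR, −0.41 by DESeq2, −0.50 with no filter, −0.23 with quality weights and −0.14 without choroid-rich libraries, and passed in none of these. Without choroid-rich libraries Npy1r had 6 pairs and Npy5r 0 in CeA, and the B6 difference of Npy1r was −0.18.

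In NAcc the Npy2r difference of PWK from Low_Average was −0.48 by edgeR, −0.49 by DESeq2, −0.59 with no filter and −0.48 with the other sequencing run, and passed in none of these. Npy5r passed in 5 pairs with no filter, 5 with no tray term, 3 with both runs summed and 2 with the other run, which also gave 0 strains against the other 7 and a PWK difference of −0.29. Npy1r passed in 1 pair with no filter, 0 with no tray term (and 0 strains) and 1 with adjustment within each contrast. In PrL the Npy difference of PWK passed at 0.21 under edgeR, DESeq2 and RLE factors. Npy1r differed in 2 strains with no tray term. Npy5r differed in 2 strains by DESeq2, 4 with both runs summed, and 4 strains and 14 pairs with the other run. With the other run Npy5r was 0.090 higher in NAcc than in CeA and did not pass, while in CeA it had 0 pairs, against 2 by DESeq2.

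Quality weights gave 3 pairs and 1 strain for Npy2r and 2 pairs for Npy5r in CeA. In NAcc they gave 4 pairs and 2 strains for Npy, 4 pairs for Npy1r, and 11 pairs and 4 strains for Npy2r. In PrL they gave 12 pairs and 4 strains for Npy5r, and B6 differences of −0.24 for Npy, which passed, and −0.10 for Npy1r, which did not. For the strain-by-region test, edgeR gave adjusted p-values of 0.0677 for Npy and 0.0390 for Npy1r and 4 contrasts for Npy2r, and the fit with the left-out library restored gave 0.0953 and 0 contrasts for Npy. The cause of these shifts was not tested.

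Libraries were left out for B6 in NAcc and PWK in PrL as planned, and for B6 and PWK in CeA, AJ and PWK in NAcc and B6 and WSB in PrL after seeing the data. Leaving out 1 library of a strain, contrasts that passed of 7 ranged in CeA from 0 to 2 for Npy of B6, 0 to 1 for Npy of PWK, 0 to 4 for Npy1r of B6 and 0 to 1 for Npy5r of B6. In NAcc they ranged from 0 to 1 for Npy of PWK, 1 to 2 for Npy2r of PWK, and for Npy5r from 0 to 2 in AJ, 0 to 2 in B6 and 2 to 5 in PWK. In PrL they ranged from 1 to 3 for Npy of B6, 2 to 4 for Npy1r of B6 and 1 to 2 for Npy1r of WSB. Differences from Low_Average ranged in CeA from −0.61 to −0.29 for Npy of B6 and −0.43 to −0.20 for Npy1r of B6. In NAcc the ranges were −1.02 to −0.71 for Npy2r of B6, −0.80 to −0.27 for Npy2r of PWK and −0.44 to −0.33 for Npy5r of PWK. In PrL they were 0.12 to 0.28 for Npy of PWK, −0.29 to −0.15 for Npy1r of B6 and 0.0081 to 0.41 for Npy2r of PWK. Depth limits Npy5r, at 47 to 222 counts per library, and Npy2r in PrL, at 48 to 207. Npy5r in every region and Npy2r in PrL gave no value at a mean CPM of at least 5.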
